A study of Mus musculus with 4 samples.

Results

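The 10 genes described here encode antioxidant and detoxifying proteins that are known targets of the transcription factor NRF2. They were taken as a fixed list of symbols: Gsr, Mgst1, Slc7a11, Gclc, Gclm, Txnrd1, Srxn1, Prdx1, Hmox1 and Nqo1. The list was chosen with earlier results of these data known. All 10 were found among the 22631 genes of the count tables. The study isolated live CD45+ cells, that is immune cells, from tumours of the MC38 mouse colon carcinoma line grown for 7 days in the flank of mice that carry the IL-12p40-IRES-EYFP reporter transgene. The group called untreated is 1 tumour sample without antibody, and the anti-CD40 group is 2 tumour samples from mice injected intraperitoneally with 5 mg/kg of an agonist antibody to CD40, a receptor on antigen-presenting cells. All tumours were taken 2 days after the treatment time point, and every mouse carried the reporter transgene. Sex, age and strain background were not given in the labels used here. Single cells were read by inDrops, a droplet method that counts unique molecular identifiers (UMIs), each of which marks 1 captured mRNA molecule.

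The deposited cells numbered 4440 in 12 libraries, 4 per tumour, and no cell barcode was shared between libraries. Pools 1 and 2 joined libraries from the untreated tumour with libraries from tumour 1 of the anti-CD40 group, while pools 3 and 4 held tumour 2 alone, so that tumour 2 and its pools cannot be told apart. The untreated tumour was read less deeply, with a median of 433 UMIs per cell against 979 and 865 in the treated tumours. By the authors' annotation the untreated tumour, tumour 1 and tumour 2 gave 1136, 448 and 1330 myeloid cells other than neutrophils, 49, 700 and 215 neutrophils, 150, 48 and 135 T cells, and 41, 28 and 128 NK cells. The 9 neutrophil markers summed to 37754 to 110474 UMIs per 1000000 UMIs (CPM) in the annotated neutrophils and to 268 to 2483 in the other myeloid cells, and Ly6g was at 0 in the 49 untreated neutrophils. All levels are given on this CPM scale, relative to the UMIs of the cell type in 1 tumour. Fewer cells expressing a gene and less RNA per cell cannot be told apart in such sums.

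NRF2, encoded by Nfe2l2, is held at low levels by KEAP1, which directs it to degradation. Oxidants and electrophiles release it from KEAP1, and it then binds antioxidant response elements together with small MAF proteins, where the haem-sensitive repressor BACH1 competes with it. Its targets rebuild reduced glutathione and thioredoxin, export or break down toxic compounds, and degrade free haem. In tumours, macrophages and neutrophils produce oxidants and take up dying cells and red cells, and several of these genes also answer to other factors, such as ATF4 for Slc7a11 and AP-1 for Srxn1 and Hmox1.

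Because the list is defined by a shared transcription factor, the promoter windows of the members were read for its binding motif. RefSeq windows on the GRCm38.p6 build, from 250 bases before to 50 bases after the transcription start, were at hand for 7 members and not for Gsr, Hmox1 and Gclc. The core of the antioxidant response element was searched as TGACNNNGC on both strands. The 7 members had 10 windows, since Txnrd1 and Mgst1 have more than 1. The motif was present in 5 of the 10 windows, each of a different member, and in 12.4% of all 32851 promoter windows of that length. Capitals mark the motif, which reads as its reverse complement where it lies on the other strand. All sequences are written 5′ to 3′ on the gene's strand.
Gclm, chr3:122245413-122245441, 134 bases before the start: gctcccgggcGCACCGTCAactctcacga
Prdx1, chr4:116685456-116685484, 133 bases before the start: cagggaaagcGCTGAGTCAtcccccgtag
Txnrd1, chr10:82859104-82859132, 92 bases before the start: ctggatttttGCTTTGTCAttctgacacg
Mgst1, chr6:138140461-138140489, 56 bases before the start: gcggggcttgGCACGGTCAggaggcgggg
Srxn1, chr2:152105542-152105570, at position 29 after the start: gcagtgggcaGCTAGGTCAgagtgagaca
The Prdx1 match is also the longer form TGACTCAGC, in which the MAF and AP-1 motifs overlap, and which 0.454% of the windows held. The AP-1 motif TGANTCA was in windows of Srxn1 and Prdx1 and in 7.81% of all windows. It lay 102 and 45 bases before the start of Srxn1 and 237 and 131 bases before that of Prdx1. Only the Srxn1 site nearer the start is printed.
Srxn1, AP-1 motif, chr2:152105469-152105495, 45 bases before the start: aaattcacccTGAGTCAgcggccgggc
The Slc7a11 window held no antioxidant response core but, on either strand, a copy of TGATGCAA, the composite element bound by ATF4 with C/EBP proteins, which 0.895% of windows held.
Slc7a11, chr3:50443662-50443689, 66 bases before the start: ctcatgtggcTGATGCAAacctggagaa
Slc7a11, chr3:50443643-50443670, 47 bases before the start: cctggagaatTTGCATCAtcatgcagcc
A match of letters describes the window only, and none of these sites was assayed here.

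All 10 members are protein-coding genes of GRCm38. Slc7a11 spans chr3:49892526-50443614 on the minus strand, Gsr chr8:33652523-33698163 and Hmox1 chr8:75093621-75100589 on the plus strand, and Mgst1 chr6:138140316-138156755 on the plus strand. Exons of Gclm (chr3:122245557-122270732, plus strand) overlap those of Gm17494 on the opposite strand over 296 bases and those of the pseudogene Gm6061 over 244 bases. The strand setting of the authors' counting was not given in the sources used here, so the Gclm counts are uncertain.

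The members fell into different patterns over the cell types, described here without a test because the types were annotated from the same cells. Prdx1, a peroxiredoxin that reduces hydrogen peroxide, was found in myeloid cells, T cells and NK cells alike and was nearly absent from neutrophils. Its level in the untreated tumour, tumour 1 and tumour 2 was 883, 784 and 969 CPM in the myeloid cells other than neutrophils, 614, 370 and 393 CPM in T cells, and 558, 594 and 393 CPM in NK cells. In neutrophils it rested on 1, 9 and 1 UMIs, and in tumour 1 the other myeloid cells held 62.1 times the neutrophil level (95% counting interval 32.4 to 137). In the 20 B cells of the untreated tumour Prdx1 had 17 UMIs (1249 CPM).

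Gsr, the glutathione reductase that returns oxidised glutathione to its reduced form, and Slc7a11, the cystine importer that feeds glutathione synthesis, had their highest levels in neutrophils. Gsr was at 767, 1191 and 1002 CPM in the neutrophils of the untreated tumour, tumour 1 and tumour 2, against 57.9, 546 and 302 CPM in the other myeloid cells. Neutrophils thus held 13.2, 2.18 and 3.31 times the myeloid level of Gsr in the 3 tumours, and the untreated tumour, where the myeloid level was low, had the widest gap. For Slc7a11 the neutrophil levels were 511, 445 and 359 CPM and the myeloid levels 22.8, 128 and 155 CPM. The gap was again widest in the untreated tumour, at 22.4 times against 3.49 and 2.32 times. T and NK cells had 0 Slc7a11 UMIs in all 3 tumours, and Gsr was represented there by 1 to 6 UMIs per tumour.

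Hmox1, haem oxygenase 1, which breaks haem down to biliverdin, carbon monoxide and iron, was a myeloid and neutrophil gene in all 3 tumours, with 0 to 5 UMIs per tumour in T or NK cells. Its order differed between the tumours. In the untreated tumour neutrophils held 3.30 times the level of the other myeloid cells, with 810 against 246 CPM. In the treated tumours the other myeloid cells held the higher level, 848 against 638 CPM in tumour 1 and 1947 against 1026 CPM in tumour 2. Mgst1, a microsomal glutathione S-transferase, was at 419 and 220 CPM in the neutrophils of the treated tumours and at 65.5 and 28.9 CPM in their other myeloid cells. In the untreated neutrophils it rested on 1 UMI, against 94.7 CPM in the other myeloid cells.

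The remaining members were sparse. Txnrd1, the thioredoxin reductase, Srxn1, the sulfiredoxin that repairs over-oxidised peroxiredoxins, and Gclm and Gclc, the regulatory and catalytic subunits of the enzyme that limits glutathione synthesis, each had between 8 and 127 UMIs per tumour in the myeloid cells other than neutrophils. Gclc had 0, 2 and 1 UMIs in neutrophils. Nqo1, the quinone reductase often used as a marker of NRF2 activity, had 0, 1 and 2 UMIs in the myeloid cells and 1, 6 and 1 in neutrophils. Its 0 UMIs in the untreated myeloid cells allow a level of up to 5.26 CPM by counting error alone, and at this depth no change of Nqo1 could be tested.

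**Figure D1:**
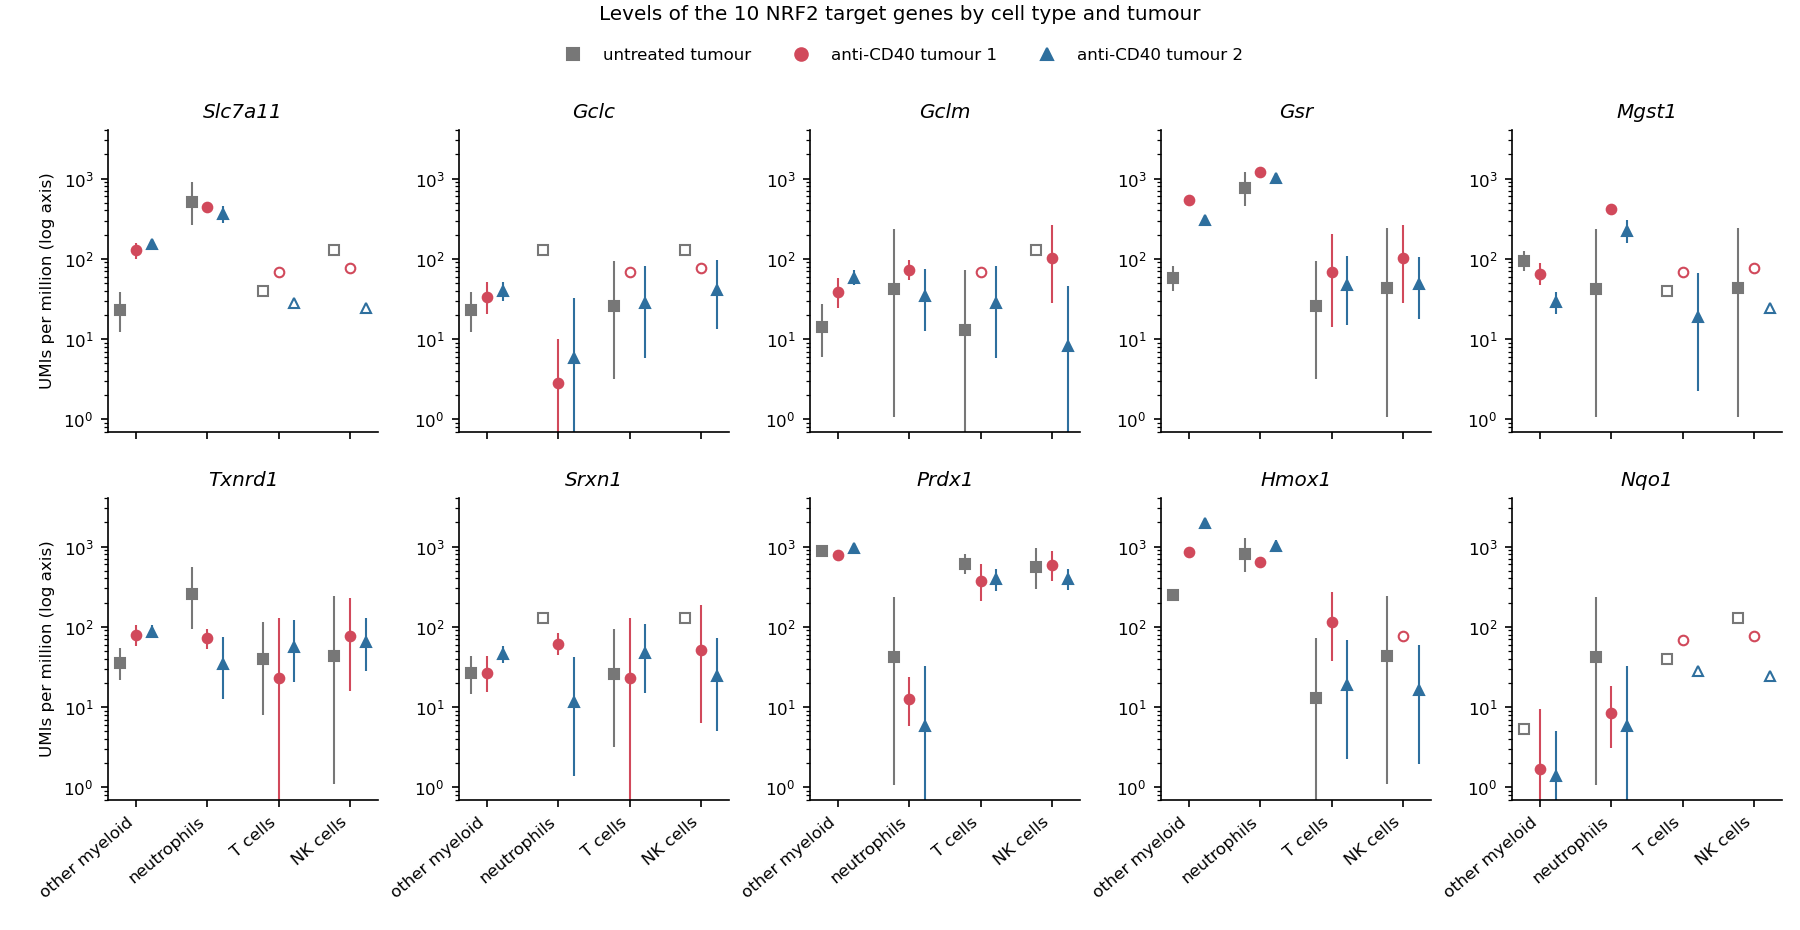
Level of each member (CPM, log axis) in the 4 main cell types, with 1 symbol per tumour. Bars are exact 95% Poisson intervals, which cover counting error only, and open symbols mark 0 UMIs and stand at the limit that 0 allows. Gsr, Slc7a11 and Hmox1 are higher in the other myeloid cells of both treated tumours than in those of the untreated tumour, while Prdx1 is at 784 to 969 CPM there in every tumour and is low in neutrophils.

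The main comparison asked how the members differed between the treated tumours and the untreated tumour within each cell type. In the myeloid cells other than neutrophils, 9 members could be tested with edgeR, and 2 of them, Gsr and Slc7a11, rose at an adjusted p under 0.05. Over all 7099 genes tested, 0.409% passed in either direction and 0.169% were higher in the treated tumours. The median log2 fold change was 1.28 over the 9 members tested and 0.02 over all genes. Because the members were chosen with earlier results of these data known, their count and median beside all genes are a description only. Since only 1 untreated tumour exists, its spread is assumed to be that of the treated tumours, and 1 residual degree of freedom among samples was left.

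Gsr had 33 UMIs (57.9 CPM) in the myeloid cells of the untreated tumour, 325 (546 CPM) in tumour 1 and 440 (302 CPM) in tumour 2. Its 4 untreated libraries lay between 39.6 and 75.7 CPM, those of tumour 1 between 492 and 589 CPM and those of tumour 2 between 286 and 399 CPM. Every library of a treated tumour was above every untreated library, and tumour 1 was above tumour 2. Libraries are technical parts of a tumour and not replicates. Here and below, the share of all genes whose libraries separate in this way was not taken. The fitted log2 fold change was 2.85 ± 0.49 (SE, 2 treated tumours against 1) with an edgeR adjusted p of 0.0149. Within pools 1 and 2, where untreated and tumour 1 libraries were sequenced together, the log2 differences were 2.96 and 3.49. Of the cells, 2.82%, 33.5% and 21.7% held a Gsr UMI, and these shares were 1.75%, 10.3% and 7.00% after thinning to 300 UMIs per cell. Thinning left out the shallower cells, 281 of 1136, 29 of 448 and 67 of 1330, so that these shares are over deeper cells, and the untreated tumour lost the most. The order of the tumours was the same with and without thinning.

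Slc7a11 had 13 UMIs (22.8 CPM) in the untreated myeloid cells, 76 (128 CPM) in tumour 1 and 225 (155 CPM) in tumour 2. Its libraries ranged from 13.8 to 31.6 CPM in the untreated tumour, from 105 to 193 CPM in tumour 1 and from 77.6 to 187 CPM in tumour 2. The treated libraries were all above the untreated ones, and those of the treated tumours overlapped each other. The log2 fold change was 2.66 ± 0.51 (SE) with an edgeR adjusted p of 0.0247. Both treated tumours gave a similar ratio to the untreated one, 5.59 (95% counting interval 3.08 to 11.0) and 6.78 (3.89 to 12.9). The call was lost with DESeq2 (adjusted p = 0.139) and when any 1 pool was left out (adjusted p 0.0529 to 0.188). The call on Gsr was lost without pool 2 (adjusted p = 0.188) and without pool 4 (adjusted p = 0.0695).

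Hmox1 had 140 UMIs (246 CPM) in the untreated myeloid cells, 505 (848 CPM) in tumour 1 and 2832 (1947 CPM) in tumour 2. The untreated libraries lay between 199.5 and 282 CPM, those of tumour 1 between 708 and 1030 CPM and those of tumour 2 between 1856 and 2012 CPM. The 3 tumours did not overlap, and the treated tumours differed from each other, with ratios to the untreated tumour of 3.45 (95% counting interval 2.86 to 4.19) and 7.92 (6.69 to 9.46). The log2 fold change of 2.57 ± 0.65 (SE) did not pass (edgeR adjusted p = 0.243). It passed with plain library sizes (adjusted p = 9.63e-06), with DESeq2 (0.0242), with no filter on low counts (0.00017), after thinning (3.28e-05) and without cells that held markers of another cell type (0.0159). It did not pass when any 1 pool was left out (edgeR adjusted p up to 0.527). Among the cells deep enough for thinning, the share with an Hmox1 UMI was 4.09%, 14.3% and 30.2%, and 1 cell of tumour 2 held 39 Hmox1 UMIs. The 45 cells of tumour 1 and the 133 cells of tumour 2 with the highest Hmox1 counts held 65.9% and 55.9% of all Hmox1 UMIs of their tumour. Such shares were not particular to Hmox1. For as many cells ranked by each gene they were 58.5% and 64.8% for Gsr, 75.0% and 80.4% for Slc7a11, and 46.0% and 44.9% for Prdx1.

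**Figure D2:**
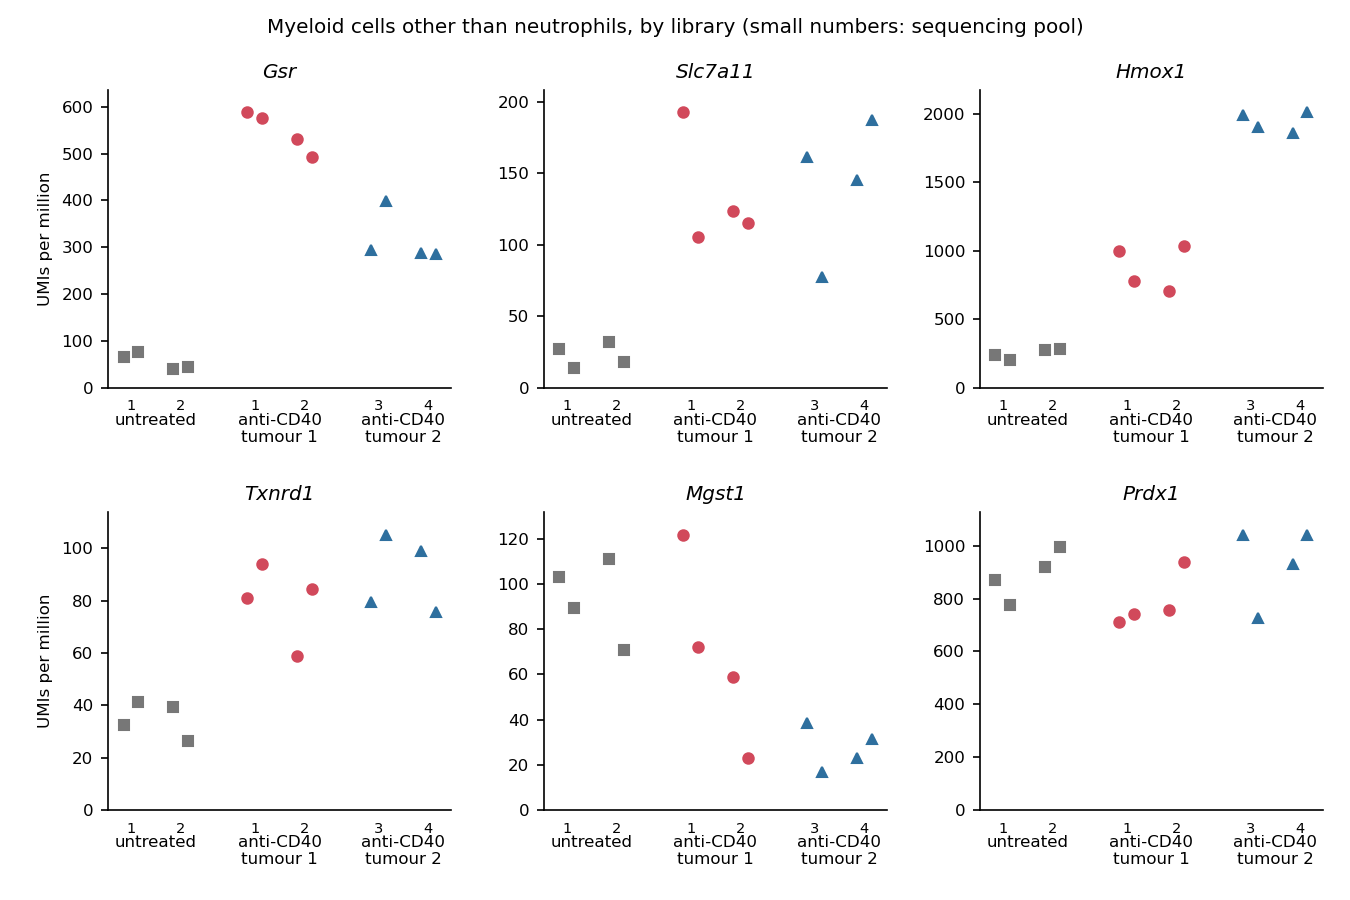
Level (CPM, linear axis) of 6 members in the myeloid cells other than neutrophils, with 1 symbol per library, grouped by tumour and sequencing pool. For Gsr, Slc7a11, Hmox1 and Txnrd1 the 8 treated libraries lie above the 4 untreated ones, and for Mgst1 and Prdx1 they overlap. Libraries are technical parts of a tumour, and the share of all genes that separate in this way was not taken.

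The other members of the myeloid cells did not pass. Txnrd1 was at 35.1 CPM in the untreated tumour and at 78.9 and 87.3 CPM in the treated ones, or 1.28 ± 0.45 on the log2 scale (SE, edgeR adjusted p = 0.368). Gclm was at 14.0, 38.6 and 58.4 CPM (log2 fold change 1.86 ± 0.59, adjusted p = 0.301), and its library levels overlapped between treated and untreated tumours. Gclc, at 22.8, 33.6 and 39.2 CPM, and Srxn1, at 26.3, 26.9 and 45.4 CPM, had log2 fold changes of 0.73 and 0.56 with adjusted p of 0.746 and 0.820. These 4 genes rest on 8 to 20 UMIs in the untreated tumour. Prdx1, with 503 UMIs there, is the best measured of the members, and its log2 fold change was 0.02 ± 0.41 (SE, adjusted p = 0.993). Its ratios to the untreated tumour were 0.888 (95% counting interval 0.781 to 1.01) and 1.10 (0.991 to 1.22). Mgst1 went the other way, at 94.7, 65.5 and 28.9 CPM, with a log2 difference of -1.09 ± 0.44 (SE, edgeR adjusted p = 0.481). Leaving out the cells with markers of another cell type gave -1.86 for Mgst1 with an edgeR adjusted p of 0.0174. This was the only 1 of 9 tested alternatives in which Mgst1 passed, and its value ranged from -1.86 to -0.21 over 13 alternatives. The cells left out were 0.968% of the untreated tumour, 17.2% of tumour 1 and 6.02% of tumour 2.

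The summed level of the 9 neutrophil markers was also higher in the treated myeloid cells, and S100a8 and S100a9 made up most of it there. The 9 markers summed to 268, 2483 and 1001 CPM in the untreated tumour, tumour 1 and tumour 2, with only Ly6g at 0 in the untreated tumour and only Mmp9 at 0 in tumour 1. S100a8 was at 36.8, 1126 and 242 CPM and S100a9 at 63.2, 923 and 408 CPM. Csf3r was at 87.7, 38.6 and 57.1 CPM, lower in both treated tumours. Retnlg was at 8.77, 6.71 and 52.2 CPM, higher in tumour 2 alone. The remaining markers are not given singly here, so whether they followed S100a8 and S100a9 is not shown. Set against the neutrophils of the same tumour, the sums were 0.711%, 2.25% and 1.44% of the neutrophil level. Gsr in the same myeloid cells was at 7.55%, 45.8% and 30.2% of its neutrophil level, and Slc7a11 at 4.46%, 28.7% and 43.1%. Hmox1 was at 30.3%, 133% and 190% of its neutrophil level. The shares of these 3 members were larger than those of the summed neutrophil markers in each tumour, the untreated one included. Both kinds of share were higher in the treated tumours, and the part of neutrophil RNA in the members' values was not tested. Cells with 3 or more UMIs of another type's markers were 0.968%, 17.2% and 6.02% of the myeloid cells, and without them Gsr, Slc7a11 and Hmox1 all passed as higher.

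Other features of these cells also differed between the tumours, and their part in the results was not tested. The 8 macrophage markers summed to 20129, 4962 and 15455 CPM, the 6 monocyte markers to 2776, 5602 and 1788 CPM, and the 5 markers of mature dendritic cells to 465, 1769 and 1133 CPM. All macrophage and monocyte markers had UMIs in each tumour. The 9 genes known to respond to tissue dissociation summed to 5829, 6506 and 10752 CPM, with tumour 2 the highest, as for Hmox1. The 13 mitochondrial genes summed to 27998, 22131 and 21889 CPM.

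To compare cells of a narrower kind, the myeloid cells were divided by the genes of C1q, a complement protein made by tumour macrophages. Cells with at least 2 UMIs of C1qa, C1qb and C1qc together numbered 769, 167 and 917, and cells with 0 such UMIs 288, 260 and 329. The gates are ranges of counts rather than cell types, and shallow cells fall more often among those with 0. In the C1q cells Gsr, Slc7a11 and Hmox1 rose. Of 6185 genes tested, 1.58% passed in either direction and 0.889% were higher in the treated tumours.

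In the C1q cells Gsr had 13 UMIs (32.1 CPM) in the untreated tumour, 92 (402 CPM) in tumour 1 and 266 (254 CPM) in tumour 2, which gave 3.35 ± 0.49 on the log2 scale (SE, edgeR adjusted p = 1.05e-05). Slc7a11 had 10 (24.7 CPM), 37 (162 CPM) and 138 UMIs (132 CPM), with a log2 fold change of 2.59 ± 0.51 (adjusted p = 0.00173). Hmox1 had 86 (212 CPM), 281 (1229 CPM) and 2013 UMIs (1920 CPM), with a log2 fold change of 2.97 ± 0.45 (adjusted p = 2.83e-05). For all 3 genes both treated tumours were well above the untreated one. With DESeq2 Slc7a11 did not pass here (adjusted p = 0.221). Gclm, at 14.8, 56.9 and 61.0 CPM, had a log2 fold change of 2.08 ± 0.60 (adjusted p = 0.0685), and Txnrd1, Srxn1, Gclc, Prdx1 and Mgst1 did not pass either (adjusted p 0.200 to 0.916). The neutrophil markers in the C1q cells summed to 0.732%, 0.847% and 1.30% of the neutrophil level, and Gsr to 4.18%, 33.8% and 25.3%. Hspa1a and Hspa1b, heat shock genes of the dissociation list, rose in the same cells, by 1.79 ± 0.39 and 1.82 ± 0.40 on the log2 scale (adjusted p = 0.00586 and 0.00694), and their part in the members' values was not tested.

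In the cells without C1q UMIs 0 of the 9 members tested passed with edgeR, where 0.505% of 5549 genes did. At an unadjusted p under 0.05 there were 4 of the 9, against 10.8% of all genes, and DESeq2 called 0. Gsr was at 131, 641 and 445 CPM (log2 fold change 1.96 ± 0.53, adjusted p = 0.0626), Slc7a11 at 21.8, 97.9 and 197 CPM (2.66 ± 0.75, adjusted p = 0.105) and Hmox1 at 305, 605 and 1744 CPM (1.88 ± 0.66, adjusted p = 0.313). With plain library sizes, or without the filter on low counts, all 3 passed. Slc7a11 rests on 3 UMIs in the untreated tumour, so that its ratio is loosely bounded, at 4.50 (95% counting interval 1.41 to 22.9) in tumour 1 and 9.06 (2.97 to 45.0) in tumour 2.

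Within the cells without C1q UMIs, 3 further gates that can share cells were described without a test. Cells with at least 2 UMIs of the monocyte genes Ly6c2, Chil3 and Plac8 numbered 111, 136 and 99 and had the highest Gsr levels of the gates, at 214, 847 and 680 CPM. Cells with at least 3 UMIs of class II antigen presentation genes numbered 144, 85 and 214 and had Gsr at 90.6, 249 and 446 CPM. Cells with at least 2 UMIs of Arg1, the arginase of tumour macrophages and monocytes, numbered 43, 41 and 88. In these Arg1 cells Hmox1 was at 152, 2731 and 4403 CPM, on 4, 109 and 402 UMIs, the highest level of the gates in both treated tumours but not in the untreated one. In the monocyte gate Hmox1 was at 153, 476 and 1057 CPM and in the class II gate at 211, 1038 and 1718 CPM. Gsr and Hmox1 thus had their highest treated levels in different gates, Gsr in the monocyte gate and Hmox1 in the Arg1 gate. Gsr had 0 UMIs in the untreated Arg1 cells, which allows up to 114 CPM, against 225 and 241 CPM in the treated tumours.

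**Figure D3:**
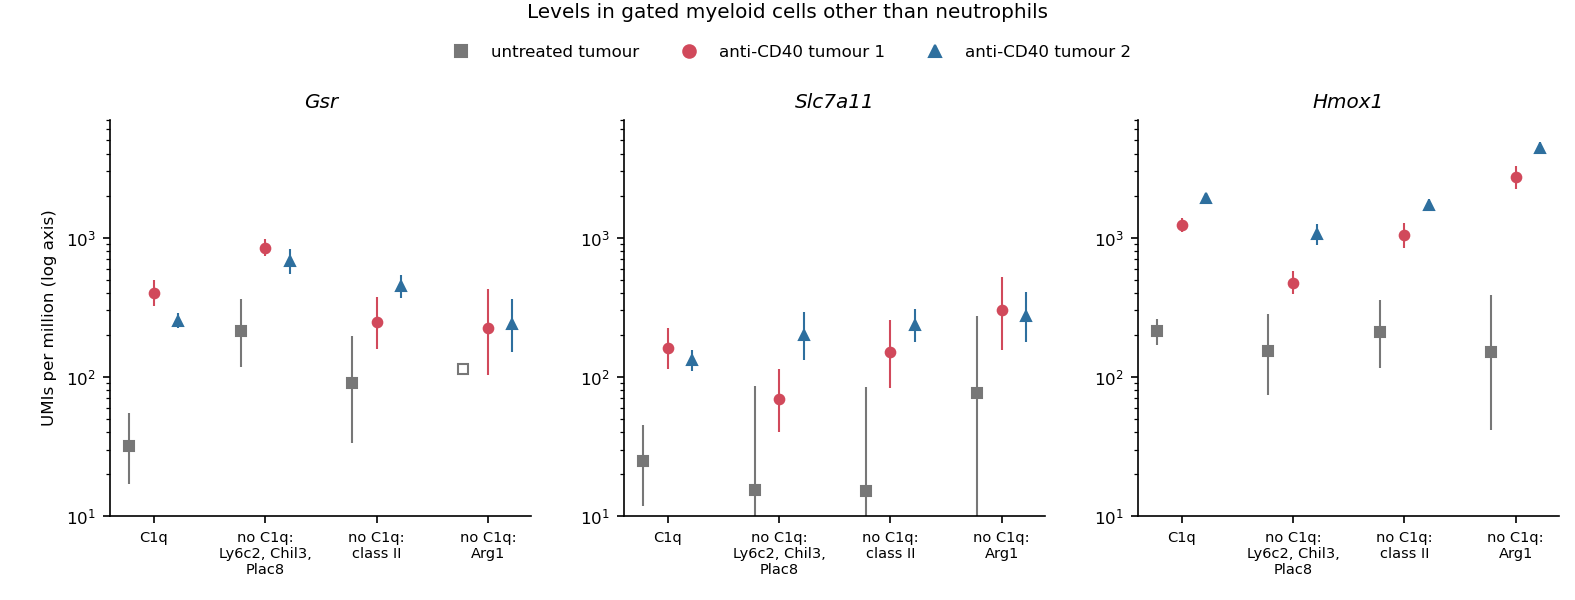
Level (CPM, log axis) of Gsr, Slc7a11 and Hmox1 in myeloid cells other than neutrophils with C1q UMIs and in 3 gates of cells without them, 1 symbol per tumour with exact 95% Poisson intervals. The open symbol marks 0 UMIs and stands at the limit that 0 allows. The treated tumours are above the untreated one in each gate, and Hmox1 reaches 4403 CPM in the Arg1 cells of tumour 2.

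In neutrophils the members could be compared only against 49 untreated cells with 23468 UMIs in all. Of the 7 members tested 0 passed with edgeR, where 0.442% of 2713 genes did. At an unadjusted p under 0.05 there was 1 of the 7, Mgst1, against 10.9% of all genes, and DESeq2 called 0. The median log2 fold change of all genes was 0.29 with TMM scaling and -0.28 with plain library sizes, so that small changes in neutrophils depend on the scaling.

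Gsr had 18 UMIs (767 CPM) in the untreated neutrophils, 849 (1191 CPM) in tumour 1 and 173 (1002 CPM) in tumour 2, with ratios to the untreated tumour of 1.55 (95% counting interval 0.977 to 2.63) and 1.31 (0.803 to 2.26). Slc7a11 had 12, 317 and 62 UMIs, with ratios of 0.870 (0.491 to 1.70) and 0.703 (0.375 to 1.43). Hmox1 had 19, 455 and 177 UMIs, with ratios of 0.788 (0.499 to 1.32) and 1.27 (0.788 to 2.15). For these 3 genes the counting intervals of both ratios included no change, and the libraries of the groups overlapped. The log2 fold changes were 1.09 ± 0.73, 0.22 ± 0.74 and 0.62 ± 0.71 (SE, edgeR adjusted p = 0.541, 0.925 and 0.766). The signs for Slc7a11 and Hmox1 differed between alternatives.

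The other members rested on 0 to 6 UMIs in the untreated neutrophils. Mgst1 had 1 UMI in the untreated neutrophils, 299 (419 CPM) in tumour 1 and 38 (220 CPM) in tumour 2, and its ratios were 9.84 (95% counting interval 1.75 to 390) and 5.17 (0.873 to 209). The log2 fold change of 3.47 ± 1.20 (SE) did not pass (edgeR adjusted p = 0.217). Txnrd1 had 6 UMIs (256 CPM), 51 (71.6 CPM) and 6 (34.8 CPM), with ratios of 0.280 (0.120 to 0.798) and 0.136 (0.0364 to 0.509) and a log2 fold change of -1.60 ± 0.91 (adjusted p = 0.495). Srxn1 had 0, 44 and 2 UMIs, and 0 in the untreated cells allows up to 128 CPM, above either treated level, so that no difference was detectable at this depth. Gclm had 1, 52 and 6 UMIs. Gclc, Prdx1 and Nqo1 were too sparse to test.

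**Figure D4:**
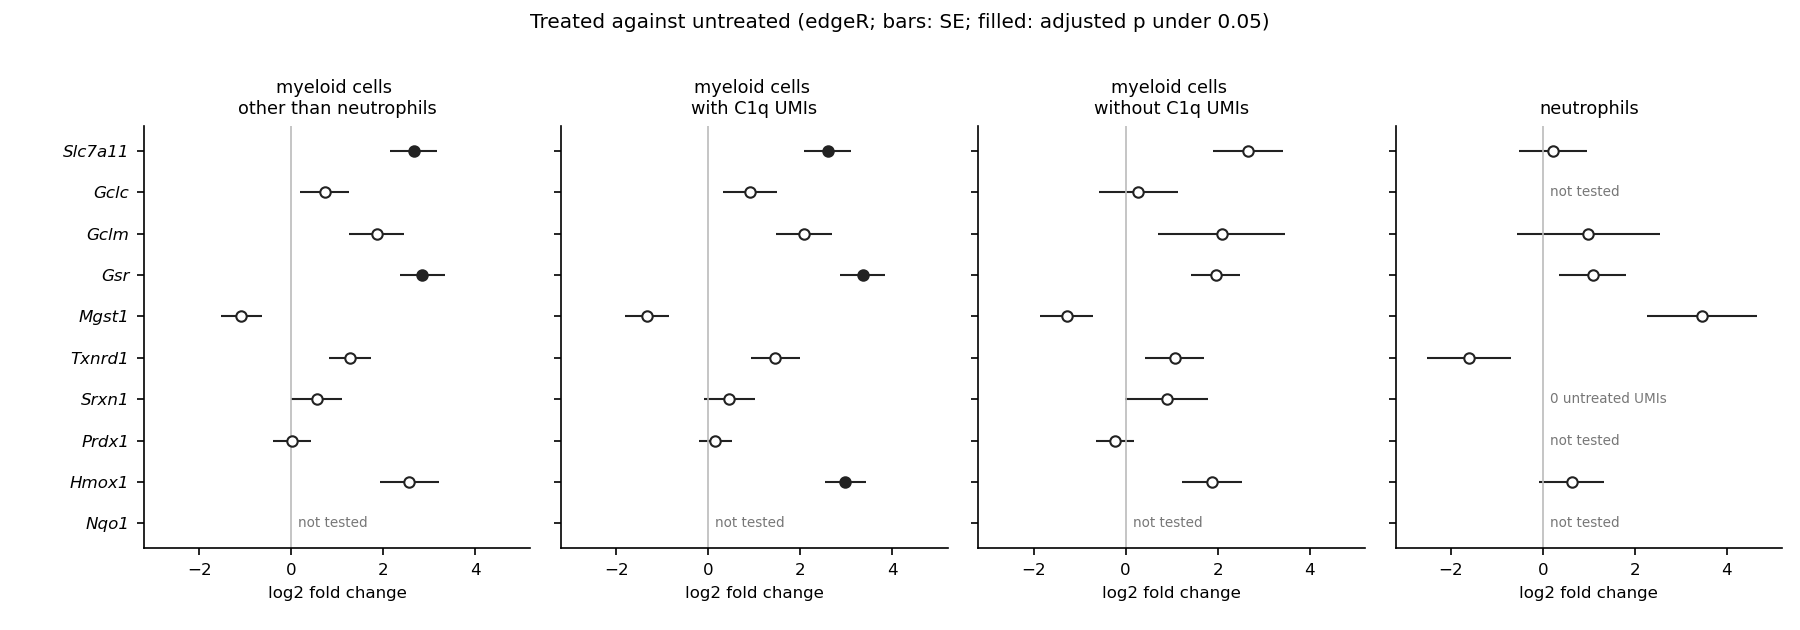
Log2 fold change (treated against untreated, edgeR, bars ± SE) of the members in 4 sets of cells. Filled points have an adjusted p under 0.05: Gsr and Slc7a11 in all myeloid cells other than neutrophils, and Gsr, Slc7a11 and Hmox1 in those with C1q UMIs.

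The authors' neutrophil subsets N1a, N1b, N2, N3 and N5 differed in the members they held, within each treated tumour. These levels are a description, since the subsets were drawn from the same cells. Hmox1 was lowest in N1a and highest in N5. In tumour 1 it was at 166, 288, 489, 1039 and 2277 CPM from N1a to N5, and in tumour 2 at 364, 760 and 2462 CPM in N2, N3 and N5. N1a and N1b of tumour 2 held 16 and 14 cells and are given as counts, with 4 and 5 Hmox1 UMIs. Among the cells of tumour 1 deep enough for thinning to 300 UMIs, 123 of N1a and 88 of N5, 4.88% and 33.0% had an Hmox1 UMI.

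Mgst1 had the opposite order. It was at 795, 429, 408, 178 and 13.7 CPM from N1a to N5 in tumour 1, and in tumour 2 at 152 and 53.0 CPM in N2 and N3 with 0 UMIs in N5, which allows up to 65.4 CPM. N1a and N1b of tumour 2 had 18 and 12 Mgst1 UMIs in their 16 and 14 cells. Among the subsets listed here Gsr had the same order over a narrower range. It was at 1385 CPM in N1a, 974 CPM in N3 and 700 CPM in N5 of tumour 1. In tumour 2 it was at 1455 CPM in N2, 760 CPM in N3 and 414 CPM in N5. Its levels in N1b and N2 of tumour 1 are not given. Slc7a11 was highest in N3 of tumour 1, at 805 CPM, against 272 CPM in N1a and 384 CPM in N5, while in tumour 2 its levels in N2, N3 and N5 (364, 389 and 479 CPM) had overlapping counting intervals. The neutrophil markers themselves summed to 170656 CPM in N1a and 27780 CPM in N5 of tumour 1, and the macrophage markers to 172 and 631 CPM. In N5 of tumour 1 C1qa, C1qb, C1qc, Mrc1 and Adgre1 were at 0, so the macrophage sum there came from the rest of that list, Apoe, Cd68 and Csf1r. The part of macrophage RNA in the Hmox1 level of N5 was not tested.

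**Figure D5:**
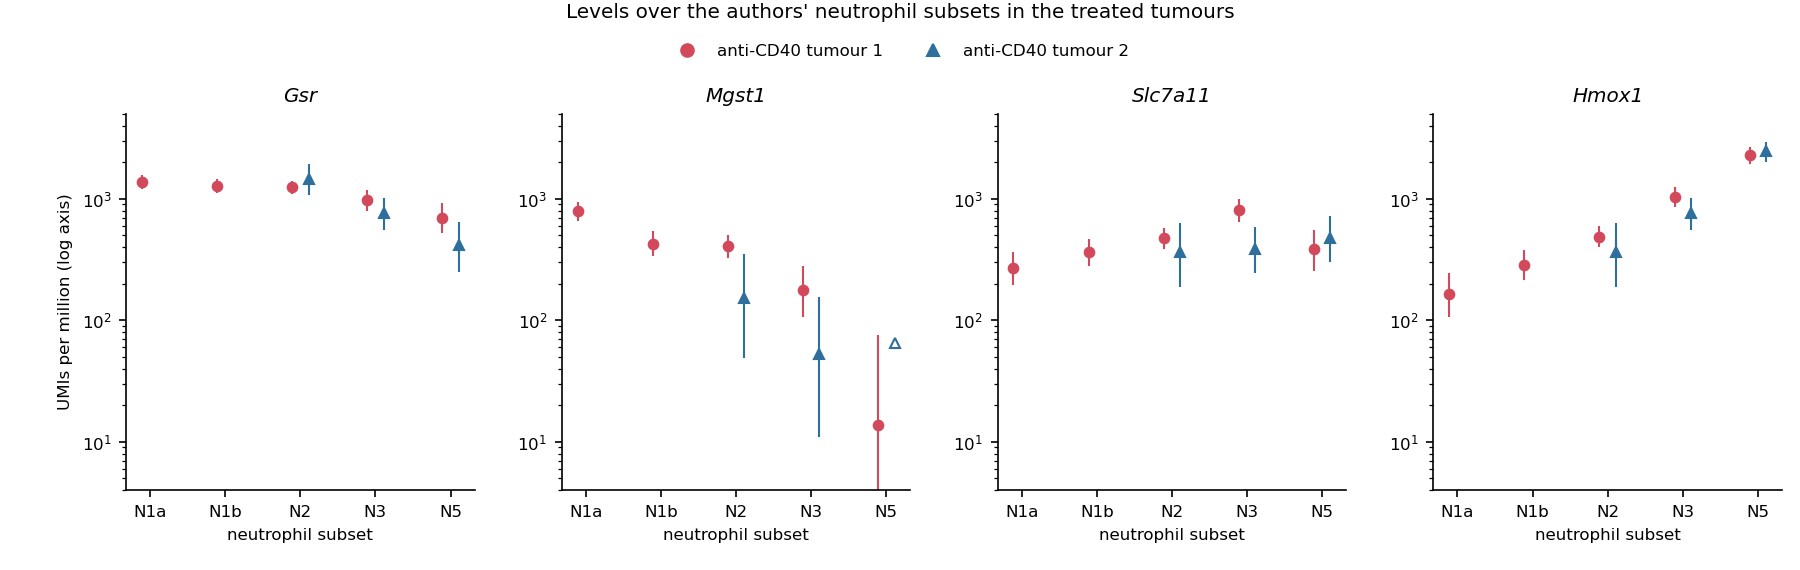
Level (CPM, log axis) of 4 members over the authors' neutrophil subsets in both treated tumours, with exact 95% Poisson intervals. Subsets with fewer than 20 cells in a tumour are not drawn, and the open symbol marks 0 UMIs at the limit that 0 allows. Hmox1 is highest in N5 in both tumours, and Mgst1 is lowest there.

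The make-up of the neutrophils differed between the tumours. N1a had 0 of the 49 untreated neutrophils and 128 of 700 in tumour 1, while N5 had 14 of 49, 96 of 700 and 66 of 215. Within N5 the untreated tumour had 16 Hmox1 UMIs in 14 cells, and the ratios of tumours 1 and 2 to it were 0.883 (95% counting interval 0.528 to 1.58) and 0.954 (0.563 to 1.73). Within N2 the untreated tumour had 8 Gsr UMIs in 14 cells, and the ratios were 1.16 (0.580 to 2.72) and 1.35 (0.632 to 3.30). For Hmox1 in N5 and Gsr in N2 these intervals included no change, but on 14 untreated cells they are wide. The ratios of these genes in the other subsets are not given here. Mgst1 had 0 UMIs in the untreated N2, N3 and N5 cells, which held 7408, 6902 and 6203 UMIs of all genes. At this depth 0 allows levels well above 0, and a difference of Mgst1 within a subset was not tested.

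Whether the effect of treatment differed between neutrophils and the other myeloid cells was tested with an interaction term, with the tumour as a block. Of 9 members tested 1 passed, Mgst1, where 0.0779% of 7700 genes did. Its effect in neutrophils was higher than in the other myeloid cells by 5.26 ± 1.27 (SE) on the log2 scale (edgeR adjusted p = 0.0473), and it rests on 1 UMI in the untreated neutrophils. Over 8 alternatives the value ranged from 3.94 to 11.25 and the adjusted p from 0.0267 to 1, and it passed in 1 of them, without pool 2. The median difference over all genes in this fit was 1.83 with TMM scaling, 0.74 with plain library sizes and 0.07 with DESeq2, so values are to be read against that shift. Relative to it Gsr (-0.98), Slc7a11 (-1.65), Hmox1 (-1.07) and Txnrd1 (-2.09) had lower effects in neutrophils, and none of the 4 passed (adjusted p 0.889 to 0.938).

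In lymphocytes Prdx1 was the member with enough UMIs for a test. In T cells it had 47, 16 and 42 UMIs (614, 370 and 393 CPM), with a log2 fold change of -0.68 ± 0.36 (edgeR adjusted p = 0.470), where 2.09% of 1865 genes passed. In NK cells it had 13, 23 and 48 UMIs (558, 594 and 393 CPM), with a log2 fold change of -0.24 ± 0.59 (adjusted p = 0.908), where 1.89% of 794 genes passed. Neither passed, and in NK cells the treated tumours lay on either side of the untreated one. The other members had between 0 and 8 UMIs per tumour in T or NK cells.

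The wider pathway was read from 83 further genes: regulators of NRF2, other glutathione and thioredoxin genes, enzymes that supply NADPH, haem and iron genes, other detoxifying targets, superoxide and peroxide enzymes, and targets of ATF4. In the myeloid cells other than neutrophils 53 were tested and 0 passed with edgeR or with DESeq2, where edgeR passed 0.409% of all genes. At an unadjusted p under 0.05 there were 10 of the 53, against 9.20% of all genes. The median log2 fold change of the 53 was 0.34, against 0.02 over all genes, for lists also chosen with earlier results of these data known. The superoxide dismutase Sod2 had the smallest adjusted p (0.167), at 168, 572 and 461 CPM. In neutrophils 31 were tested and 0 passed by either tool, where edgeR passed 0.442% of all genes. There 7 of the 31 had an unadjusted p under 0.05, against 10.9% of all genes, and Glrx, a glutaredoxin, was the nearest (edgeR adjusted p = 0.342). In T cells 24 were tested and in NK cells 13, and 0 passed by either tool, with 3 and 0 at an unadjusted p under 0.05 in edgeR, against 11.2% and 11.0% of all genes.

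In the C1q cells 2 of 48 pathway genes tested passed with edgeR, both higher, where 1.58% of all genes passed and 0.889% were higher. DESeq2 called 0 of the 48. Sod2, which turns mitochondrial superoxide into hydrogen peroxide, was at 155, 512 and 427 CPM (1.63 ± 0.39 on the log2 scale, edgeR adjusted p = 0.0154). Prdx6, a peroxiredoxin that uses glutathione, was at 207, 499 and 608 CPM (1.49 ± 0.38, adjusted p = 0.0272). Both treated tumours were above the untreated one for each gene. By list, 1 of 3 superoxide and peroxide genes and 1 of 9 other thioredoxin and peroxiredoxin genes passed, and 0 passed of 9 regulators, 7 other glutathione genes, 5 NADPH genes, 5 haem and iron genes, 3 other detoxifying targets and 7 ATF4 targets.

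The transcripts of the pathway's own regulators did not pass in either cell type. Nfe2l2, which encodes NRF2, was at 332, 436 and 377 CPM in the myeloid cells other than neutrophils (log2 fold change 0.31 ± 0.39, edgeR adjusted p = 0.863) and at 1534, 832 and 794 CPM in neutrophils (-0.34 ± 0.66, adjusted p = 0.872). Keap1 was at 79.0, 68.8 and 58.4 CPM in the myeloid cells (-0.30 ± 0.39, adjusted p = 0.869) and had 0, 13 and 2 UMIs in neutrophils. Bach1 was at 71.9, 75.5 and 59.8 CPM in the myeloid cells (-0.09 ± 0.40, adjusted p = 0.960) and had 0, 90 and 15 UMIs in neutrophils (adjusted p = 0.392). NRF2 is regulated largely as a protein, which these counts do not measure.

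Across the 12 sums of 4 cell types in 3 tumours, Gsr and Slc7a11 had like patterns, with a Pearson r of 0.95 on log2(CPM + 10). These sums share libraries and cell types, so the value is a description. Among 3051 other genes with at least 200 UMIs, those most like Gsr were Fpr1 (0.96), Txn1 (0.96) and Slc7a11, and those most like Slc7a11 were Clec4d, Inhba and Rnf149 (0.98 each). Hmox1 was most like Plin2 (0.96), a lipid droplet gene, and Ftl1 (0.95) and Fth1 (0.94), which encode the subunits of ferritin. Mgst1 was most like Nadk (0.94), Rassf3 (0.91) and Bst1 (0.90). Prdx1 stood apart from the myeloid members, with an r of -0.72 with Gsr and its nearest genes Ndufb8 (0.99), Calr (0.98) and Ybx1 (0.98). The sparse members gave Vps35, Mpc2 and Kmt5a for Txnrd1 (0.79 to 0.84), Arpc1a, Pdcl3 and Rtn3 for Srxn1 (0.89 to 0.91), Scarb2, Cpt1a and Stk40 for Gclm (0.80 to 0.86), and Slc35c2, Tmem176a and Bax for Gclc (0.88 to 0.90). For Nqo1, with 11 UMIs in all, the nearest were Osbpl8, March7 and Klf7 (0.89 to 0.91), which at this count is no finding.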

How the data were processed

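UMI counts per gene and cell were deposited by the authors as raw, unnormalised counts in 1 table per pool, with a cell table that gives each cell's tumour, library, cell type and neutrophil subset. The submitters' processing notes name bcl2fastq, STAR and the GRCm38 build. Versions, gene annotation, strand setting, cell filters and the treatment of doublets were not given in the sources used here. No doublet caller was run here, and cells with 3 or more UMIs of another type's markers were left out as an alternative.

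The tumour is the replicate, so the UMIs of each cell type were added up within a tumour, and the sums were tested with edgeR 4.0.16 in R 4.3.3 (quasi-likelihood F test with robust fit, TMM scaling, filterByExpr), with Benjamini-Hochberg adjustment over all genes tested and a threshold of 0.05. The SE is the log2 fold change divided by the square root of F. The cell table gives each tumour 1 animal name, and the labels do not say whether mice were pooled. With 1 residual degree of freedom, the edgeR p-values rest on the spread between the treated tumours and on a trend over all genes tested. The prior degrees of freedom, the weight of that trend, were 15.9 in the myeloid cells other than neutrophils. They were 45.2 and 61.1 in those with and without C1q UMIs. For neutrophils, T cells, NK cells and the difference of effect they were infinite, so a gene's own spread had little or no weight. Levels are CPM with exact Poisson 95% intervals, ratios have exact conditional intervals, and shares of cells were also taken after thinning to 300 UMIs per cell. These intervals and limits cover counting error only, as does the limit of 3 UMIs used where a count was 0. On simulated data with 8-fold changes the test recovered 100% of changed genes in the myeloid cells other than neutrophils, 86% in neutrophils, 100% in T and NK cells, 49% for the difference of effect, and 99% in the cells with and without C1q UMIs. The changed genes were drawn from those with at least 200 UMIs over the sums, with a fixed dispersion. Within each cell type most members had fewer UMIs, and the rates do not apply to those.

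The members and lists were chosen with earlier results of these data known. All 10 members are reported, with Nfe2l2, Keap1 and Bach1, pathway genes that pass (at most 8 a comparison, by adjusted p), and the 3 genes most like each member by the Pearson correlation. Sod2 in the myeloid cells, Glrx, Hspa1a and Hspa1b were named after their values were seen, as were S100a8, S100a9, Csf3r and Retnlg in the myeloid cells. Alternatives were plain library sizes, DESeq2 1.42.0, no filter, each pool or treated tumour left out, thinned cells and other gates. Python 3.11.15, numpy 2.4.6, scipy 1.17.1 and pandas 2.3.3 were used. Gene positions come from a GENCODE annotation of GRCm38.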

Additional observations from a re-analysis of the deposited data

Results flagged for a closer look

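The effect of treatment on Mgst1 was higher in neutrophils than in the other myeloid cells by 5.26 on the log2 scale. This difference passed the interaction test (edgeR adjusted p = 0.0473), with 1 Mgst1 UMI in the 49 untreated neutrophils. The median difference over all genes in this fit was 1.83, and the value for Mgst1 is to be read against that shift. Of 8 alternatives Mgst1 passed in 1.

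For Slc7a11 both treated tumours had a higher level than the untreated tumour in the myeloid cells other than neutrophils, with ratios of 5.59 and 6.78, while the neutrophil ratios were 0.87 (95% counting interval 0.491 to 1.70) and 0.703 (0.375 to 1.43), on 12 untreated UMIs. Both neutrophil intervals include no change, the fitted neutrophil log2 fold change was 0.22 ± 0.74 (SE), and its sign differed between alternatives. The interaction test of this difference gave a log2 value of -1.65 and did not pass (edgeR adjusted p = 0.889). For Txnrd1 the ratios were 2.25 and 2.49 in the myeloid cells and 0.28 and 0.136 in neutrophils, where the untreated tumour had 6 UMIs. Its interaction value was -2.09 and did not pass either (edgeR adjusted p = 0.889).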

How the results depend on the processing

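Among the myeloid cells other than neutrophils 2 members passed. The number was 1 without pool 1 or pool 3, 0 without pool 2 or pool 4, and 4 without cells that held markers of another cell type. It was 3 with plain library sizes, with no filter on low counts or after thinning, and 2 with DESeq2, which called Gsr and Hmox1. The difference of effect between neutrophils and other myeloid cells, passed by 1 member, was passed by 0 with plain library sizes, DESeq2, no filter, thinning, or without pool 1, 3 or 4. In cells without C1q UMIs, where 0 passed, 3 did with plain library sizes or no filter and 2 among cells of at least 500 UMIs. No result reversed among the members that passed. Genes passing in the myeloid cells numbered 29, against 89 with plain library sizes, 12 with DESeq2, 141 with no filter, 1, 14 and 10 without pools 2, 3 and 4, 56 after thinning and 64 without marker-mixed cells. Over the alternatives the genes passing ranged from 3 to 25 in neutrophils (12 as reported), from 3 to 41 in T cells (39, with 3 by DESeq2), from 1 to 16 in NK cells (15, with 1 by DESeq2), from 0 to 28 for the difference of effect (6), from 14 by DESeq2 to 147 with at least 4 C1q UMIs in C1q cells (98), and from 1 by DESeq2 to 71 in cells without C1q UMIs (28). In neutrophils the median log2 difference of all genes tested was 0.29, and -0.28 with plain library sizes, under which 6 genes passed as higher and 8 as lower, against 11 and 1. DESeq2 called 10 higher and 2 lower in the myeloid cells, against 12 and 17, and 12 and 2 in C1q cells, against 55 and 43. Without 1 treated tumour, and so with no test, the myeloid log2 differences were 2.50 to 3.14 for Gsr, 2.38 to 2.87 for Slc7a11, 1.70 to 3.10 for Hmox1 and -1.60 to -0.62 for Mgst1. No paired analysis was possible because there is 1 untreated tumour, so that the groups compared share fewer than 2 replicate numbers. The 1 untreated tumour and its 49 neutrophils limit every comparison.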
